A study of Mus musculus with 4 samples.

Results

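Oxysterols are cholesterol molecules that carry an extra oxygen, and they connect the sterol content of a cell to its gene expression. The 10 genes described here make or break down oxysterols (Cyp27a1, Ch25h, Cyp46a1, Cyp7b1), sense them (Nr1h2 and Nr1h3, the liver X receptors LXRβ and LXRα), or act downstream of the receptors in moving cholesterol out of the cell (Abca1, Abcg1, Apoe) or in limiting its uptake (Mylip). They were chosen by name, with measured values of these same libraries known, among them the 0 reads of Cyp27a1 in both libraries of one genotype. All 10 were found among the 25393 genes listed, and all 10 passed the minimum mean level of 1 normalized count that left 22094 genes for testing. Cyp27a1 passed it through the WT libraries alone and so had to differ. The differences of the 10 genes are a description and not a test of the genotype.

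RNA-seq was performed on primary astrocytes from cortex and hippocampus of untreated C57BL/6 mouse pups at postnatal day 1, wild-type (WT) or labelled tet1-/-, a constitutive knockout (KO) of the DNA dioxygenase Tet1. Each genotype had 2 libraries. Cells of 2 mice were pooled for an isolation, cultured for about 7 days, shaken at 260 rpm and kept for another 24 h, and no label says whether the libraries of a genotype came from separate isolations, so p-values measure only the spread between these libraries. The WT libraries held 266 and 121 normalized counts of Tet1 itself, and the KO libraries 173 and 463. These whole-gene counts of the deleted gene therefore did not tell the genotypes apart, and they do not show which exons the reads cover. The paper reports that its KO astrocytes had hardly any detectable Tet1 mRNA. The KO libraries are called the libraries labelled KO, in short labelled KO.

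A normalized count is the number of reads on a gene divided by a size factor of its library, and 1 read was worth between 0.901 and 1.07 normalized counts. The libraries held 18749610 and 22673555 reads on genes in WT and 20702980 and 22403163 in labelled KO. Among 12868 genes with a mean of at least 50, 10.7% differed over 2-fold between the WT libraries and 28.6% between those of labelled KO. The libraries also differed in sex-linked transcripts, with Xist at 8.54 and 0.920 normalized counts in WT against 2896 and 13367 in labelled KO, and the part of sex in the values below was not tested. Because the cultures were sequenced in bulk, fewer cells of a type and less RNA per cell cannot be told apart.

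In the brain, cholesterol is made locally, since lipoproteins of the blood do not cross the blood-brain barrier. Astrocytes load it through ABCA1 and ABCG1 onto particles that carry apolipoprotein E, and other cells take these particles up. Oxysterols switch on the liver X receptors, which bind DNA together with a retinoid X receptor, and Abca1, Abcg1, Apoe, Mylip and Nr1h3 itself are known target genes.

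The promoters of the members are shown first, because Tet1 acts on methylated cytosines in CpG pairs and because the receptors bind a repeat of a hexamer, written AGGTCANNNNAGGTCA and called DR4. RefSeq sequences of GRCm38.p6, from 250 bases before to 50 bases after each start, were matched by symbol for 8 of the 10 genes and gave 11 promoters. Abcg1 and Cyp7b1 had no entry. The sequences below run 5′ to 3′ on the strand of the gene with each CpG in capitals, and they represent the gene at 0 reads, the enzyme with the widest spread, a transporter that was lower, and the receptor that stayed close to WT.
Cyp27a1, chr1:74713285-74713584, plus strand: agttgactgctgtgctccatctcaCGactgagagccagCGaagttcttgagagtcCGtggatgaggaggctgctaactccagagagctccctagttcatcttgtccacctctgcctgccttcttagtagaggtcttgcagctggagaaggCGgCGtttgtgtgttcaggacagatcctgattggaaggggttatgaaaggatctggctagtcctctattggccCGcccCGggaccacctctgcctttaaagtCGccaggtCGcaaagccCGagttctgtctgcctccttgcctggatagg
Ch25h, chr19:34475099-34475398, minus strand: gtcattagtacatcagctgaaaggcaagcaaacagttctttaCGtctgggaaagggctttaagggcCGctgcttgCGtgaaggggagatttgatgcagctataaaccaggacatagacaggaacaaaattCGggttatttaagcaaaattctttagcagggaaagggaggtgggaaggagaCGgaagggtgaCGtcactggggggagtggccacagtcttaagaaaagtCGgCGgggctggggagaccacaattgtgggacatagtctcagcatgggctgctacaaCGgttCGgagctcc
Abca1, chr4:53159846-53160145, minus strand: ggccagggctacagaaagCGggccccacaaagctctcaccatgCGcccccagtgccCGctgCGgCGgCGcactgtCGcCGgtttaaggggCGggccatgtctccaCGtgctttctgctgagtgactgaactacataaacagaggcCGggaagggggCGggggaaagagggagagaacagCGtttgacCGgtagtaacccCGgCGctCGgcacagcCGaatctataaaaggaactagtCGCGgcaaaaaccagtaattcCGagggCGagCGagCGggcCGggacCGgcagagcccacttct
Nr1h2, chr7:44553916-44554215, minus strand: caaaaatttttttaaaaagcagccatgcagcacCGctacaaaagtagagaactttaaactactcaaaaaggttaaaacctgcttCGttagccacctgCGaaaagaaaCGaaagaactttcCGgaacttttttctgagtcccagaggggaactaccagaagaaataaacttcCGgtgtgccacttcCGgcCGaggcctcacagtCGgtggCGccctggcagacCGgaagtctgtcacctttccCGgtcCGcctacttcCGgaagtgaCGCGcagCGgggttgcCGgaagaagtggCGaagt

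Cyp27a1 and Ch25h had 10 CpG pairs in these windows, Nr1h2 had 19, and Abca1 had 26, against a median of 7 over all 32851 promoters. The other members ranged from 8 in an Nr1h3 promoter to 31 in that of Cyp46a1, and Mylip had 29, so the CpG-rich promoters included those of Abca1 and Cyp46a1, lower in both labelled KO libraries, and of Mylip, which overlapped. On both strands, no member promoter held DR4 with at most 2 mismatches in its 12 defined bases, which 3.02% of all promoters did, and none held the single hexamer AGGTCA, which 16.3% did. The closest matches had 3 mismatches, as 21.9% of all promoters had at most. They were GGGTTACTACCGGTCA on the minus strand of the Abca1 window, from 67 to 52 bases before the start, and AGCTCAAGAGAGGGTA in that of Cyp46a1. These matches describe letters in a short window, and the receptors also bind enhancers outside it.

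Of the 10 genes, 8 had lower normalized counts in both labelled KO libraries than in either WT library, and Nr1h2 and Mylip overlapped. The same holds for 25.4% of all 22094 genes tested, and 22.5% lay above both WT libraries. The median log2 difference, labelled KO minus WT, was -1.55 over the 10 genes and -0.07 over all genes tested. In the limma fit across all genes, 0 of the 10 had an adjusted p under 0.05, as did 0 of all 22094 genes (0.0%), and 5 of the 10 were lower at an unadjusted p under 0.05, against 9.18% of all genes. This count of 5 was smaller without either WT library and without labelled KO replicate 2. Over all genes tested, the count of lower genes was also smaller without either WT library, but not without labelled KO replicate 2. edgeR called 0 of the 10 after adjustment, with 3 lower at an unadjusted p under 0.05. DESeq2 on the recovered reads called Cyp27a1, Ch25h and Abcg1 lower, where it called 4.62% of the genes it tested lower and 1.64% higher. Since the genes were selected on this contrast, nothing is read from these counts.

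**Figure D1:**
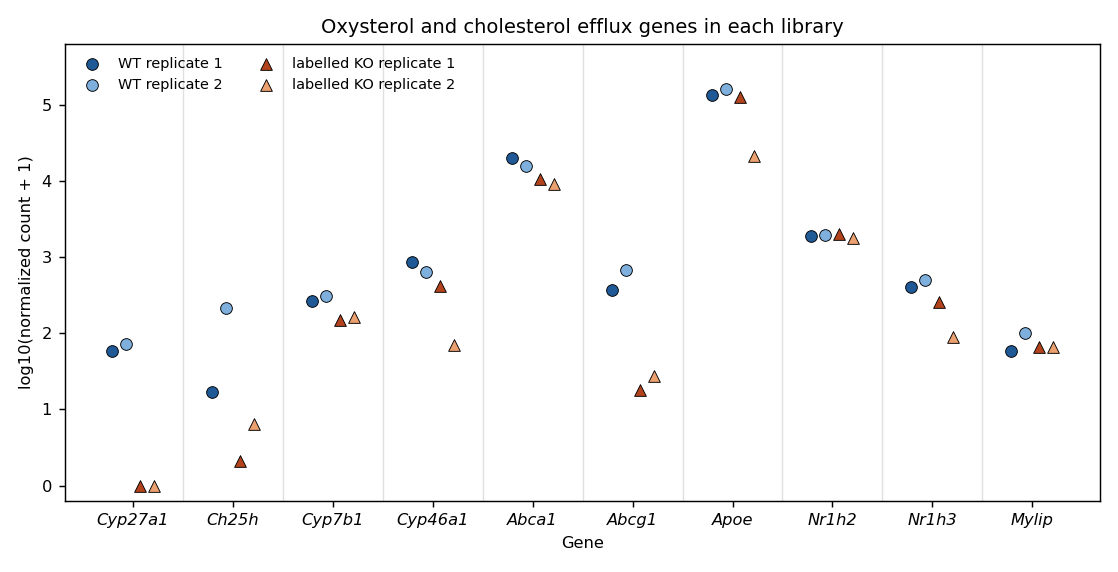
Normalized counts of the 10 genes in the 4 libraries, on a log10(value + 1) axis; each point is 1 library, and genotypes differ in colour. Cyp27a1 lies at 0 in both labelled KO libraries, Abcg1 lies at 17.1 and 26.1 against 372 and 679.6, and the Apoe, Cyp46a1 and Nr1h3 points of labelled KO replicate 2 lie far below those of replicate 1.

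Cyp27a1 encodes the mitochondrial sterol 27-hydroxylase, which makes 27-hydroxycholesterol, a ligand of the liver X receptors, and starts the acidic pathway of bile acid synthesis. The gene lies on chromosome 1 at 74713574 to 74737892 of mm10, on the plus strand. Normalized counts were 57.6 and 71.7 in WT, from 54 and 78 reads, and 0 reads in both labelled KO libraries. The WT mean was 64.7 ± 9.98 (SD, n = 2), and against a floor of 3 reads per library labelled KO was at least 21.9-fold lower. The WT libraries were close to each other, and the groups were separated by this whole range.

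By Euclidean distance of log2(normalized count + 1) over the 4 libraries, the profiles nearest to Cyp27a1 were those of Ms4a4d at 0.82, Rec8 at 0.87, Oas1g at 1.01, Ect2l at 1.15 and Acot3 at 1.16. Ms4a4d, a gene of the membrane-spanning Ms4a family, had 99.2 and 86.4 normalized counts in WT. Rec8, a cohesin subunit of meiotic cells, had 36.3 and 47.8, and both had no read in labelled KO.

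The partner proteins that pass electrons to CYP27A1, ferredoxin (Fdx1) and its reductase (Fdxr), were looked at after their values were seen. Fdx1 had 318 and 335 normalized counts in WT, against 429 and 282 in labelled KO, and Fdxr had 293 and 223 against 262 and 184. Both overlapped between the groups.

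Ch25h encodes cholesterol 25-hydroxylase, an interferon-inducible enzyme of the endoplasmic reticulum whose product, 25-hydroxycholesterol, restrains sterol synthesis and is made mainly by macrophages and microglia in brain. It lies on chromosome 19 at 34473786 to 34475135, on the minus strand. In the GENCODE annotation, whose span of Ch25h differs from this one, the noncoding gene Gm26902 overlaps it on the other strand. Normalized counts were 16.0 and 215 in WT, from 15 and 234 reads, and 1.07 and 5.41 in labelled KO, from 1 and 6 reads. All 4 libraries were ordered with WT above labelled KO, but WT replicate 2 was 13.4-fold above WT replicate 1, and labelled KO replicate 1 lay under the floor of 3 reads. The log2 difference was -4.06 (SE 1.38), and it was -2.22 without WT replicate 2 and -5.89 without WT replicate 1. Whether reads of Gm26902 entered these counts is not known, because the use of strand in counting is not given in the sources used here.

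Cyp46a1 encodes cholesterol 24-hydroxylase, which makes 24S-hydroxycholesterol, the form in which most cholesterol leaves the brain, and is mainly a neuronal enzyme. It lies on chromosome 12 at 108334381 to 108362234, on the plus strand. Normalized counts were 875 and 638 in WT, against 422 and 68.5 in labelled KO. Labelled KO replicate 1 was 6.16-fold above replicate 2, and with means of 757 ± 167 and 245 ± 250 (SD, n = 2 each) the SD of labelled KO was as large as its mean. The log2 difference was -2.13 (SE 0.86), and it was -0.82 without labelled KO replicate 2 and -3.43 without replicate 1.

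Cyp7b1 encodes oxysterol 7α-hydroxylase, which inactivates 25- and 27-hydroxycholesterol. It lies on chromosome 3 at 18071950 to 18243338, on the minus strand. Normalized counts were 268 and 309 in WT, against 148 and 161 in labelled KO, with means of 288 ± 29.1 and 155 ± 9.63 (SD, n = 2 each). Both genotypes were tight, and WT was 1.87-fold above labelled KO, with a log2 difference of -0.89 (SE 0.36). Cyp7b1 and the genes of the enzymes that make oxysterols, Cyp27a1, Ch25h and Cyp46a1, were therefore lower in the same libraries, by different amounts.

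The receptors gave unlike values. Nr1h2, the widely expressed LXRβ (chromosome 7, 44549616 to 44553951, minus strand), had 1917 and 1982 normalized counts in WT, against 2004 and 1776 in labelled KO, and the groups overlapped. Its log2 difference was -0.05 (SE 0.27), a difference that was not detectable with 2 libraries a genotype, and it was 0.04 without labelled KO replicate 2. Nr1h3, LXRα of macrophages, liver and fat tissue (chromosome 2, 91184061 to 91202834, minus strand), had 400.1 and 505 normalized counts in WT, against 256 and 87.4 in labelled KO.

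Both labelled KO libraries were below both WT libraries for Nr1h3, and labelled KO replicate 1 was 2.93-fold above replicate 2. The log2 difference was -1.58 (SE 0.59), and -0.81 without labelled KO replicate 2. The gene overlaps Gm13783 on its own strand and the small RNA gene Gm23390 on the other. Per length, Nr1h3 made up 21.8% and 25.4% of the summed FPKM of both receptors in WT and 14.5% and 6.16% in labelled KO. FPKM, reads scaled to gene length and to the total reads on genes, was computed from the recovered reads and is the scale for comparing genes.

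Both transporters were lower in labelled KO, Abca1 less than Abcg1. Abca1, which hands cholesterol and phospholipid to lipid-free apolipoproteins (chromosome 4, 53030787 to 53159895, minus strand), had 19913 and 15551 normalized counts in WT, against 10639.7 and 9198 in labelled KO. WT was 1.79-fold above labelled KO, with means of 17732 ± 3084 and 9919 ± 1019 (SD, n = 2 each) and a log2 difference of -0.83 (SE 0.32). Abcg1, which moves sterol onto particles that already carry lipid (chromosome 17, 31057698 to 31115777, plus strand), had 372 and 679.6 normalized counts in WT, against 17.1 and 26.1 in labelled KO.

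Every WT value of Abcg1 was far above every labelled KO value, with means of 526 ± 217 and 21.6 ± 6.37 (SD, n = 2 each), a 24.3-fold difference. The log2 difference was -4.51 (SE 0.53) and ranged from -4.94 to -4.07 when each library was left out in turn. Per length, Abcg1 made up 4.55% and 10.02% of the summed FPKM of both transporters in WT and 0.409% and 0.719% in labelled KO. In the GENCODE annotation, whose span of Abcg1 differs from the one above, an rRNA gene, Gm25447, overlaps Abcg1 on the same strand.

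Apoe, the apolipoprotein of astrocyte-derived particles (chromosome 7, 19696109 to 19699188, minus strand), was by FPKM the gene ranked 3 among all listed genes. It had 135734 and 164062 normalized counts in WT, 125631 in labelled KO replicate 1 and 21341 in labelled KO replicate 2. Labelled KO replicate 1 was thus near WT, at 77.4% of the WT mean FPKM, while replicate 2 was at 14.4%. The log2 difference of -1.53 (SE 0.88) became -0.25 without labelled KO replicate 2 and -2.81 without replicate 1, so a difference of Apoe rested on 1 library.

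Mylip encodes the ubiquitin ligase IDOL, through which the liver X receptors limit the uptake of lipoproteins (chromosome 13, 45389742 to 45412022, plus strand). It had 57.6 and 101 normalized counts in WT, against 65.3 and 65.8 in labelled KO. The labelled KO values lay between the WT values, and the log2 difference was -0.22 (SE 0.53). It turned to 0.25 under quantile normalization and to 0.18 without WT replicate 2.

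**Figure D2:**
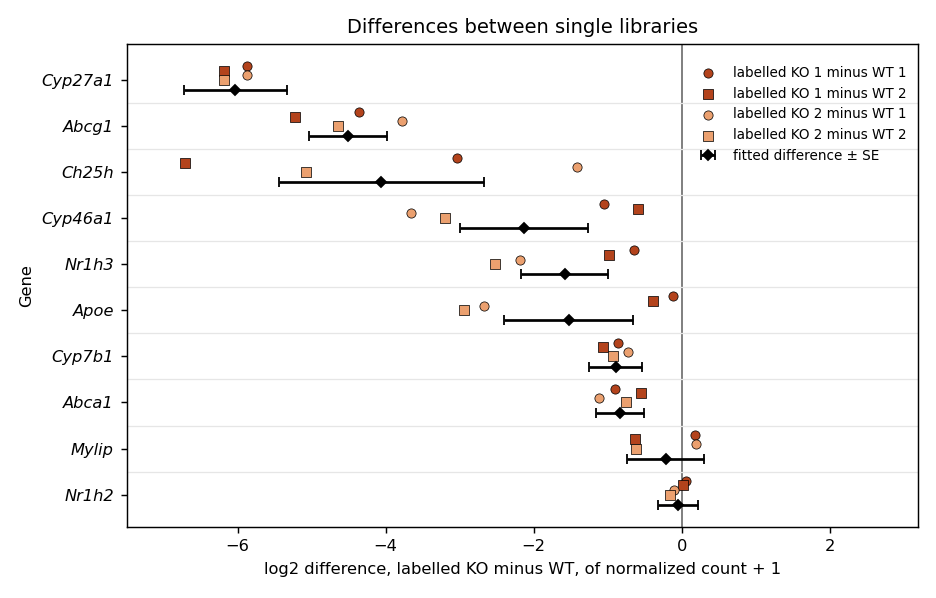
Log2 differences of the 10 genes, labelled KO minus WT, for each of the 4 pairs of a labelled KO and a WT library (points) and the limma estimate with its standard error (diamond and bar); the vertical line at 0 is no difference. The 4 pairs of Abcg1 span -5.23 to -3.78, those of Apoe span -2.94 to -0.11, and those of Nr1h2 and Mylip lie on both sides of 0.

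On the FPKM scale, Apoe stood far above the others in WT, with 3173 and 3680, followed by Abca1 with 96.1 and 72.0 and Nr1h2 with 28.6 and 28.3. Then came Cyp46a1 with a mean of 11.3 ± 2.82, Nr1h3 with 8.79 ± 1.18, Cyp7b1 with 6.51 ± 0.468, Abcg1 with 6.30 ± 2.43 and Ch25h with 4.12 ± 4.99 (SD, n = 2 each). Cyp27a1, with 1.45 ± 0.182, and Mylip, with 1.20 ± 0.431, were lowest. Neighbours in this order whose WT libraries overlapped, and so were not told apart, were Cyp46a1 and Nr1h3, Cyp7b1 and Abcg1, Abcg1 and Ch25h, Ch25h and Cyp27a1, and Cyp27a1 and Mylip. In labelled KO the order of the first 3 was kept, and Abcg1, with 0.254 ± 0.0907, and Ch25h, with 0.117 ± 0.115, were under Mylip, with 0.960 ± 0.0682.

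The share of Cyp46a1 in the summed FPKM of Cyp46a1 and Cyp7b1 was 68.3% and 57.6% in WT. It was 65.3% in labelled KO replicate 1, within the WT range, and 21.9% in replicate 2.

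**Figure D3:**
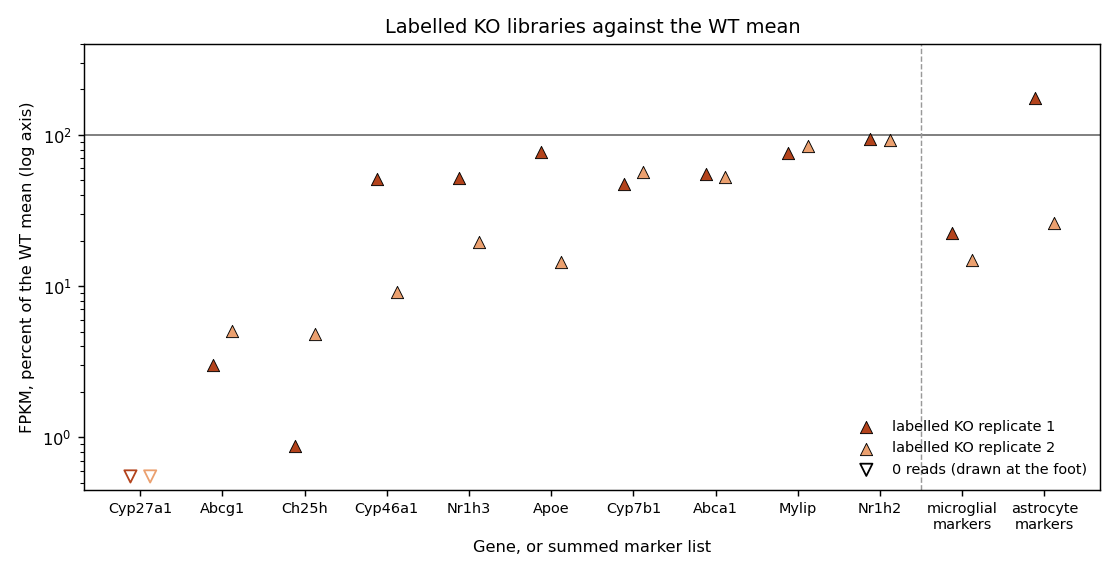
FPKM of each labelled KO library as a percent of the WT mean, on a log axis, for the 10 genes and for the summed microglial and astrocyte markers; Cyp27a1, with 0 reads, is drawn as open triangles at the foot. Abcg1 and Ch25h are at or under 5.06% in both libraries, and Apoe, Cyp46a1, Nr1h3 and the astrocyte markers are lower in replicate 2 than in replicate 1.

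Marker genes of cell types were read beside these values. All 18 microglial and macrophage markers had a lower estimate in labelled KO, 17 without overlap and 14 at an unadjusted limma p under 0.05, with a median log2 difference of -3.25. Of all genes tested, 25.4% lay below both WT libraries and 9.18% were lower at this threshold. The count of 14 was smallest without WT replicate 2, where the count of lower genes over all genes tested was also smaller. Their summed FPKM was 89.3 and 163 in WT and 28.4 and 18.7 in labelled KO, which is 22.5% and 14.8% of the WT mean. The macrophage marker Mrc1 had 0 reads in both labelled KO libraries, but its WT mean was only 3.90 ± 0.988 normalized counts (SD, n = 2), near the floor of 3 reads. Microglia and macrophages are known to express Ch25h, Cyp27a1, Abcg1, Nr1h3 and Apoe.

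These percents lay above the 3.02% and 5.06% of Abcg1, the 0.869% and 4.82% of Ch25h and the 0 of Cyp27a1, and the part of such cells in the members' differences was not tested. The 10 astrocyte markers summed to 1502 and 1447 FPKM in WT, so the labelled cell type was well represented, and to 2586 and 387 in labelled KO. The sum of 2586 in labelled KO replicate 1 was mostly Gfap, the glial filament protein, at 1871 FPKM. Of the 10 markers, Aldh1l1, Slc1a3, Slc1a2, Aqp4 and Sox9 lay below both WT libraries in both labelled KO libraries, 1 (Gja1) lay above and 4 overlapped. The median log2 difference was -0.63, with 8 of 10 estimates lower and 2 of 10 lower at an unadjusted limma p under 0.05. The shares over all genes tested were 25.4% below both WT libraries, 22.5% above both, and 9.18% lower at this threshold. Labelled KO replicate 2, the library with the lowest astrocyte sum, was also the one with the lowest Apoe, Cyp46a1 and Nr1h3, and the part of this in their values was not tested. The 8 markers of proliferating cells had summed FPKM of 2.44 and 12.3 in WT and 34.3 and 60.03 in labelled KO, and all 8 were higher at an unadjusted limma p under 0.05, against 4.54% of all genes. The summed FPKM of oligodendrocyte lineage markers was 217 to 324 in WT and 244 to 431 in labelled KO, that of neurons 19.3 to 23.3 and 29.0 to 29.7, that of meningeal and mural cells 21.6 to 28.6 and 17.0 to 26.3, and that of endothelial cells 0.173 to 0.262 and 0.212 to 1.11.

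Around the members, 80 other genes of the same biology were grouped by role, of which 71 were tested. After adjustment limma called 0 of the 71 and edgeR 0, and at an unadjusted limma p under 0.05 there were 12 lower and 6 higher, against 9.18% and 4.54% of all genes tested. The count of 12 was smaller without either WT library and larger without labelled KO replicate 1. The count of 6 was smaller without WT replicate 1. The counts over all genes tested moved in the same directions. Under quantile normalization the split over all genes tested was 1490 lower and 1417 higher, in place of 2028 and 1004. DESeq2 called 10 of the 71 after adjustment, 6 lower and 4 higher, where it called 4.62% and 1.64% of the genes it tested. Among them were Lpl, Cd5l, Abca7, Apoc1, Stard5 and Gramd1c lower and Insig1, Stard4 and Osbpl6 higher. Rose and fell refer here to these 10 DESeq2 calls, none of which had an adjusted p under 0.05 in limma.

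**Figure D4:**
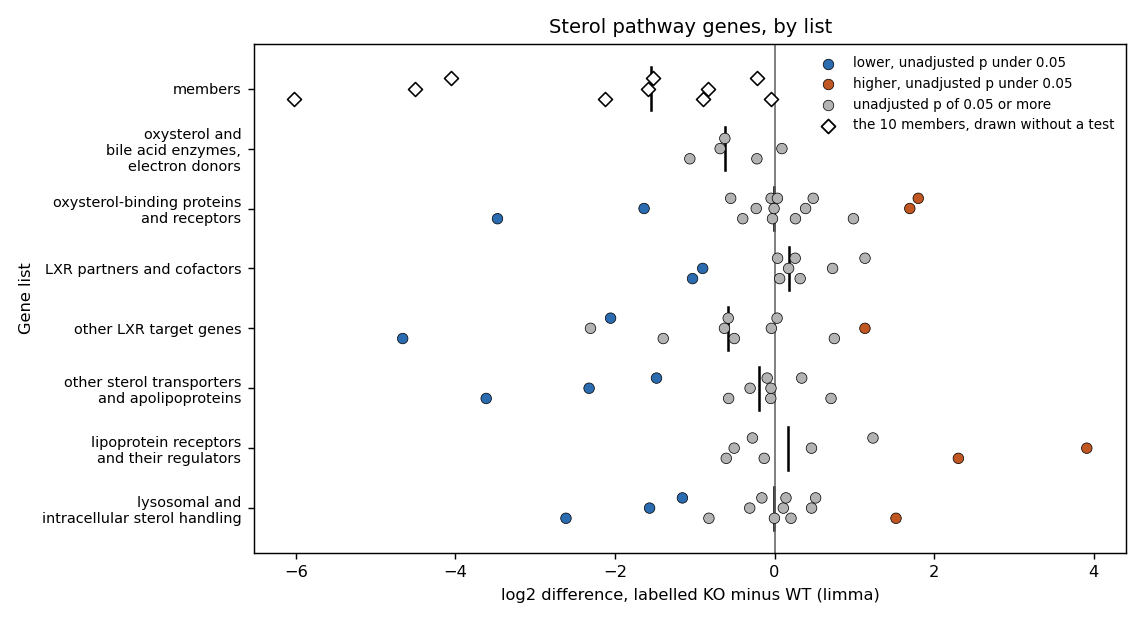
Log2 differences, labelled KO minus WT (limma), of the tested genes of 7 pathway lists and of the 10 members; each point is a gene, colours mark an unadjusted p under 0.05, and vertical bars are medians. Medians of the 7 lists run from -0.62 to 0.18, and that of the members is at -1.55.

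Among 5 tested enzymes of oxysterol and bile acid metabolism and their electron donors, none passed the unadjusted threshold in limma or the adjusted one in DESeq2, and the median log2 difference was -0.62. The one with the highest FPKM was Por, the reductase that serves microsomal P450 enzymes such as CYP7B1 and CYP46A1, with 4781 and 4143 normalized counts in WT, against 2058 and 3740.5 in labelled KO.

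Of 15 tested oxysterol-binding proteins and receptors, 2 were lower and 2 higher at an unadjusted limma p under 0.05. The shares over all genes tested were 9.18% and 4.54%, and the median of the list was -0.01. Rora, a nuclear receptor that binds sterols, had 1619.7 and 551 normalized counts in WT, against 285 and 324 in labelled KO. Insig1, which holds the SREBP escort protein in the endoplasmic reticulum, rose from 1479.9 and 693 to 3762 and 3322 (log2 difference 1.80, SE 0.43). Osbpl6, a lipid-transfer protein of the same family as OSBP, rose from 626 and 379 to 1036 and 2410.1.

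The partners and cofactors of the receptors had 2 of 9 lower and none higher at an unadjusted limma p under 0.05. Over all genes tested, 9.18% were lower and 4.54% higher. Rxra, the retinoid X receptor that pairs with both liver X receptors, had 1811 and 2183 normalized counts in WT, against 1065 and 892 in labelled KO (log2 difference -1.03, SE 0.29). The groups did not overlap, and Ncoa3, a coactivator, had 1421 and 895 against 550.2 and 662. The median of the list was 0.18.

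Other target genes of the liver X receptors did not share a direction, with a median of -0.58. At an unadjusted limma p under 0.05, 2 of 11 were lower and 1 higher, against 9.18% and 4.54% of all genes. Lpl, the lipoprotein lipase, fell from 660.5 and 1179 normalized counts to 227 and 197 (log2 difference -2.05, SE 0.40). Cd5l, a secreted protein of macrophages, fell from 189 and 26.7 to 0 and 7.21. Scd1, the stearoyl-CoA desaturase, had higher counts in labelled KO, 14532 and 10986 against 6374 and 5200.2 (log2 difference 1.13, SE 0.32). Srebf1, the best known lipogenic target, named after its values were seen, had 4585 and 5783 normalized counts in WT, against 4531 and 2911 in labelled KO, a log2 difference of -0.50 (SE 0.35).

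Of 10 tested transporters and apolipoproteins beside the members, 3 were lower and none higher at an unadjusted limma p under 0.05. The shares over all genes tested were 9.18% and 4.54%. Abca7, a transporter related to Abca1, fell from 517 and 745 normalized counts to 257 and 192 (log2 difference -1.48, SE 0.38). Apoc1, which lies beside Apoe in the same gene cluster, fell from 41.6 and 179 to 12.8 and 2.70. Clu, the other abundant apolipoprotein of astrocytes, had 94083 and 106131 in WT and 46166 and 8627 in labelled KO, so its labelled KO replicate 2 was the lowest library, as it was for Apoe.

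Of 8 lipoprotein receptors and their regulators, none was lower and 2 were higher at an unadjusted limma p under 0.05. The shares over all genes tested were 9.18% and 4.54%, and the median log2 difference of the list was 0.17.

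Of 13 genes of lysosomal and intracellular sterol handling, 3 were lower and 1 higher at an unadjusted limma p under 0.05. Over all genes tested, 9.18% were lower and 4.54% higher. Stard4, a carrier of cholesterol between membranes, rose from 538 and 406 normalized counts to 1237 and 1463 (log2 difference 1.52, SE 0.32). Stard5, a related protein, fell from 1959 and 3379 to 969 and 779 (log2 difference -1.57, SE 0.37). Gramd1c, which moves cholesterol from the plasma membrane to the endoplasmic reticulum, fell from 514 and 302 to 111 and 36.1, and its relative Gramd1b had 1861 and 1274 against 985 and 485.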

How the data were processed

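RNA-seq libraries were grouped by the genotype and replicate number in the labels. Per the paper's methods and the labels, the authors filtered paired-end reads and aligned them to mm10. The aligner, counting program and annotation release are not given in the sources used here. The deposited signal of each gene is its read count over the library's size factor, and the authors did not correct it for length. All values up to 1000 reads were whole multiples of 1 read (100% within 0.01), so reads were recovered for every gene. The deposited means, fold changes and p-values of the authors' own comparison were not used. No value column was left unmapped.

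The members, gene lists and tests were chosen with earlier results of these data known. The planned limma test, written for FPKM, was kept for normalized counts. limma 3.58.1 in R 4.3.3 (lmFit, eBayes with a trend) was run on log2(value + 1) for the 22094 genes whose mean reached 1, and p-values were adjusted by Benjamini-Hochberg. With this pseudocount the fold change of a low gene is understated. An exact two-sided permutation test of 2 against 2 libraries cannot go below p = 0.333, so none was used. The recovered reads were also tested with edgeR 4.0.16 (quasi-likelihood) and DESeq2 1.42.0. The DESeq2 shares are over the 17382 genes given an adjusted p. FPKM used the gene lengths in the deposited table, and gene positions are those of the same table. Overlapping genes were looked up with the gene spans of GENCODE M21, which differ from the deposited ones for Ch25h and Abcg1. Floors of 3 reads cover counting error only. Genes named from the lists had an unadjusted limma p under 0.05 and no overlap between the genotypes (at most 4 a list), or else the highest FPKM of a list. Python 3.11.15, numpy 2.4.6, pandas 2.3.3 and matplotlib 3.10.9 were used. Alternatives were a pseudocount of 0.1, other mean minimums, 3 other scalings, no variance trend, a replicate block, each library left out, FPKM, edgeR and DESeq2. Some genes that this rule names are not reported here.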

Additional observations from a re-analysis of the deposited data

How the results depend on the processing

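Over 15 alternatives, 431 of 434 values of the 29 members and named pathway genes kept their direction. The named pathway genes and 8 of the members did not overlap between the genotypes. Leaving out a library therefore could not reverse them, and this agreement was largely fixed in advance. Nr1h2 ranged from -0.13 to 0.0398 (without labelled KO replicate 2) and Mylip from -0.62 to 0.183 on the log2 scale with 1 library left out, and Mylip was 0.253 under quantile normalization. DESeq2 called 3 members, 10 pathway genes, 20 marker genes and 1088 genes in all after adjustment where limma called 0, and FPKM values with a pseudocount of 0.1 gave 2 genes in all. The 5 members lower at an unadjusted p under 0.05 were 3 without a variance trend, 3 in edgeR and 2 to 5 with 1 library left out (3 without WT replicate 1, 2 without WT replicate 2, 3 without labelled KO replicate 2). The 12 lower pathway genes were 6 without a trend and 2 to 20 with 1 library left out, the 6 higher ones 3 to 8, and the 14 lower microglial genes 4 to 14. The count of 8 members without overlap stayed between 8 and 9, but leaving out a library could only keep or raise it. With all 4 libraries kept, the count was 9 when they were scaled to equal sums and 9 on the FPKM scale. These counts do not say which genes they hold, and the cause of the shifts was not tested. The fitted value of Cyp27a1, -6.03, depends on the pseudocount and is -9.33 at 0.1. When a library was left out, the genotype left with 1 library was assumed to vary like the other.

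Replicate numbers did not pair the libraries, with a correlation of deviations of -0.08 over all genes tested and -0.11 over those with a mean of at least 50. A replicate block called 0 genes after adjustment and gave 5 lower members, 11 lower and 5 higher pathway genes and 14 lower microglial genes at an unadjusted p under 0.05. Over all genes it gave 1821 lower and 762 higher. With 2 libraries a genotype and labelled KO replicates that differed by more than 2-fold for 28.6% of genes, moderate differences were not detectable.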

Other observations

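Beside genes lower in both labelled KO libraries, other sterol genes had the labelled KO libraries on opposite sides of both WT libraries. In 12 of 71 tested pathway genes (16.9%) labelled KO replicate 1 was above and replicate 2 below both WT libraries, and in 6 (8.45%) the reverse was found, against 9.22% and 8.49% of all genes tested. The first pattern included the sorting receptors Sort1 and Sorl1 and Lcat, the cholesterol acyltransferase of lipoproteins, and the reverse was found for the receptors Vldlr and Scarb1, all named after their values were seen. Lcat had 659 and 645 normalized counts in WT, 1899.9 in labelled KO replicate 1 and 210.01 in replicate 2. In 4 of 10 astrocyte markers, Gfap, S100b, Aldoc and Fgfr3, the same pattern was found. Among the members Nr1h2 alone showed it, on the scale of normalized counts. Its FPKM was 28.6 and 28.3 in WT, against 27.0 and 26.2 in labelled KO. On that scale both labelled KO libraries were below both WT libraries.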
